A study of Mus musculus with 6 samples.

Results

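The genes described here carry glucose into cells and break it down to lactate. They are 10 of the 33924 genes listed for RPE/choroid of the mouse, that is, the retinal pigment epithelium with the vascular choroid behind it. The set was chosen by gene symbol. Slc2a1, Hk1, Hk2, Gpi1, Pfkl, Pfkp, Aldoa, Ldha and Ldhb were found under these symbols, and Pkm was found under its older symbol Pkm2, so that all 10 genes had a line. The poly(A)-selected libraries came from 3 young and 3 aged C57BL/6J mice, labelled male throughout, whereas the study's methods describe both sexes. Titles give 1 to 2 months for the young group, whereas the study's methods give 2 to 3 months. For the aged group titles give 20 to 24 months, and the age field of the aged samples gives 22 to 24 months. Both eyes of a mouse made up a sample, no allele or agent was involved, and the retina was peeled off before the pigmented layer was scraped from the sclera.

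For each gene the table holds 1 measurement that is not a comparison, the mean normalized count over the 6 libraries, averaged by the authors over both age groups. It holds no value per library. A mean and an SD within an age group could therefore not be formed, young and aged RPE/choroid could not be compared, and each value below is the authors' pooled mean with no error. The remaining columns hold the authors' own comparison of the age groups and were not used. In bulk tissue of this kind a lower level from fewer cells of a type and one from less RNA per cell cannot be told apart. The mean counts of all genes added up to 40816700, and the depth behind each library is unknown.

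Glycolysis starts when a carrier of the GLUT family, chiefly GLUT1 in the outer blood-retinal barrier, lets glucose into the cell. Hexokinase traps it as glucose 6-phosphate, phosphofructokinase commits it to breakdown, aldolase cleaves the sugar, pyruvate kinase forms pyruvate, and lactate dehydrogenase interconverts pyruvate and lactate. The RPE is known for passing most glucose on from the choroid to the photoreceptors and for taking up the lactate these release. It spends little glucose itself.

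The 10 genes were abundant as a group. Among them, those of the glucose carrier, aldolase, pyruvate kinase and lactate dehydrogenase stood above those of hexokinase, the isomerase and phosphofructokinase on each scale used. Levels between genes were compared per length, as the mean normalized count per kb of the longest annotated transcript. On this scale the order was Aldoa, Pkm, Ldhb, Ldha, Slc2a1, Pfkl, Gpi1, Hk1, Pfkp and Hk2, and the highest level was 94.3 times the lowest. Highest over lowest was 58.1 per kb of coding length and 26.5 in the counts as deposited. On those scales and per kb of median transcript length, Slc2a1 lay above Ldha and Ldhb. The median over the 10 genes was 6285 per kb, against 234 per kb over the 15517 protein-coding genes whose mean normalized count reached 10. In the counts as deposited the medians were 14146 and 842. Across these background genes, which are not independent replicates, the counts were hardly related to length, with a Spearman rho of 0.0981 with the longest transcript and -0.0193 with the coding length. Whether the counts were already scaled by length is not given in the sources used here. If they were, each value per kb divides by length a second time, and the counts as deposited are the scale to compare. The lowest percentile among the 10 genes was 70.6 per kb and 82.5 in the counts as deposited. Per kb, all 10 genes lay above that background median, 5 of them at or above percentile 95 and 3 at or above percentile 99 of these genes. Together the 10 genes held 0.645% of all normalized counts.

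**Figure D1:**
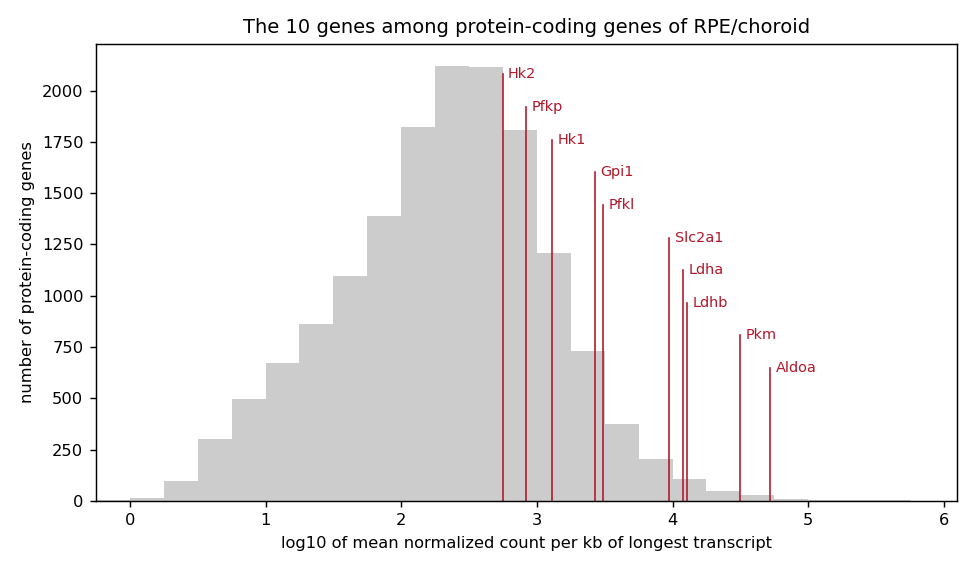
The grey bars count the 15517 protein-coding genes by the log10 of their mean normalized count per kb of longest transcript, and each red line marks 1 of the 10 genes at its level (line heights only separate the names). Hk2 lay at percentile 70.6 and Aldoa at percentile 99.8.

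Slc2a1 encodes GLUT1, the glucose carrier of the RPE. The gene (ENSMUSG00000028645) maps to chr4:119108711-119137983 (plus strand, GRCm38). Its mean normalized count was 30874, or 9470.45 per kb, which placed it at percentile 98.6. The 6 other carriers listed beside it were far lower. Slc2a4, the insulin-responsive carrier GLUT4 of muscle and fat, had a mean normalized count of 2066 (647 per kb), Slc2a12 had 1740.49, Slc2a8 had 760.3 and Slc2a3, the carrier GLUT3 of neurons, had 662. Slc2a2, the GLUT2 carrier of liver, had 22.5, and Slc2a5, a fructose carrier, was below the minimum of 10 with 7.96. Of the summed level of these 7 carriers per kb, Slc2a1 made up 87.0%.

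Hk1 and Hk2 encode the hexokinases that bind to mitochondria. Hk1 is known as the broadly expressed form and Hk2 as a form of muscle, fat and fast-growing cells that photoreceptors also use. Hk1 (ENSMUSG00000037012) maps to chr10:62268855-62379908 (minus strand), and Hk2 (ENSMUSG00000000628) to chr6:82725025-82774454 (minus strand). The mean normalized count was 5538 for Hk1 and 3078 for Hk2, or 1295 and 558 per kb. Hk1 was thus 2.32 times as high as Hk2 per kb of longest transcript. The ratio was 1.80 in the counts as deposited, 1.75 per kb of coding length and 4.58 per kb of median transcript length. Hk2 was the lowest of the 10 genes on each scale used. Of the other hexokinases, Hk3 of leukocytes had 623 and Hkdc1 had 597. The summed level of these 4 hexokinase genes was 2216 per kb, of which Hk1 made up 58.4% and Hk2 25.2%. The summed level of the 7 carriers was 10891.5 per kb.

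Gpi1 encodes the isomerase that turns glucose 6-phosphate into fructose 6-phosphate. Gpi1 (ENSMUSG00000036427) maps to chr7:34201330-34230336 (minus strand). Its mean normalized count was 8511, or 2664 per kb, at percentile 93.7.

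Phosphofructokinase is a tetramer built from liver (Pfkl), platelet (Pfkp) and muscle (Pfkm) subunits. Pfkl (ENSMUSG00000020277) maps to chr10:77986947-78010083 (minus strand), and Pfkp (ENSMUSG00000021196) to chr13:6579768-6648777 (minus strand). Pfkl had a mean normalized count of 11558.5 and Pfkp one of 7230.1, or 3099 and 833 per kb. Pfkl was 3.72 times as high as Pfkp per kb of longest transcript, a ratio that rests on the long annotated transcript of Pfkp of 8681 bases. Per kb of coding length, which is almost equal for both (2340 bases and 2352 bases), it was 1.61. The third subunit, Pfkm, had a mean normalized count of 14604, or 5073 per kb, above both of the others. Per kb of median transcript length it was the lowest, with 5219 against 16911 for Pfkl and 8007 for Pfkp. Pfkm made up 56.3% of the summed level of the 3 subunits per kb and 43.8% per coding kb. Pfkl made up 34.4% and 34.7%.

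Aldoa encodes aldolase A, the aldolase of muscle and most other tissues. Aldoa (ENSMUSG00000030695) maps to chr7:126795234-126800751 (minus strand). It was the highest of the 10 genes on each scale except per kb of median transcript length, where Pkm was higher, with a mean normalized count of 81559.5, or 52653 per kb. Aldoc, the aldolase of brain and retina, had a mean normalized count of 12446 (4467 per kb). Aldoa made up 92.2% of the summed level of these 2 aldolases per kb.

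Pkm encodes the pyruvate kinases M1 and M2, which differ by 1 alternative exon. Pkm (ENSMUSG00000032294) maps to chr9:59656368-59679375 (plus strand). Its mean normalized count was 76613, or 31502 per kb, at percentile 99.7. The line carries the older symbol Pkm2, and as it is a value per gene, the M1 and M2 forms could not be separated. Pklr, the pyruvate kinase of liver and red cells, was listed at 0.

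Ldha and Ldhb encode the subunits of lactate dehydrogenase. Subunit A is known to prevail in muscle and other lactate-forming tissues, and subunit B in heart and other tissues that use lactate. Ldha (ENSMUSG00000063229) maps to chr7:46841475-46855627 (plus strand), and Ldhb (ENSMUSG00000030246) to chr6:142490249-142507957 (minus strand). Ldha had a mean normalized count of 21666 and Ldhb one of 16733, or 11937 and 12832 per kb. The levels were thus close, and which subunit was higher depended on the scale. Ldha was 0.930 times Ldhb per kb of longest transcript, 1.20 times Ldhb per kb of coding length and 1.29 times Ldhb in the count as deposited. Ldhc, the form of testis, had 0.648, below the minimum.

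**Figure D2:**
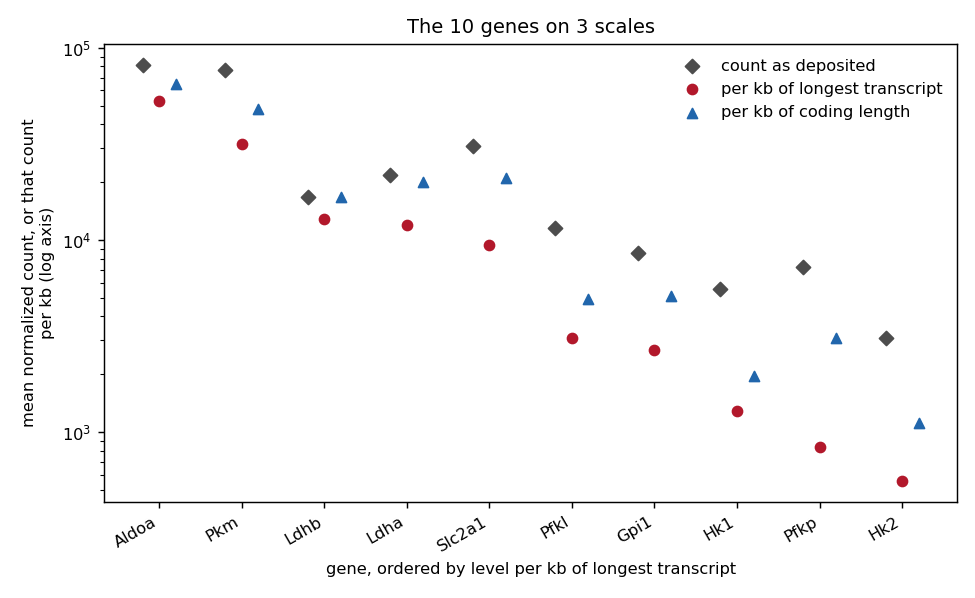
Each of the 10 genes is drawn with its mean normalized count as deposited (diamonds), per kb of longest transcript (circles) and per kb of coding length (triangles), on a log axis. Aldoa and Pkm were the highest and Hk2 the lowest on all 3 scales, and the order of Ldha, Ldhb and Slc2a1, that of Pfkl and Gpi1 and that of Hk1 and Pfkp changed between scales.

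Neighbours in this order often differed by little, and with no error on the means such differences could not be tested. Ldhb was 1.07 times Ldha and Pfkl was 1.16 times Gpi1 per kb of longest transcript, and Gpi1 exceeded Pfkl per kb of coding length with 5084 against 4939.5. Larger steps separated Slc2a1 from Pfkl (3.06 times), Pkm from Ldhb (2.45 times) and Gpi1 from Hk1 (2.06 times). These larger steps kept their direction per coding kb, where the ratios were 4.23, 2.88 and 2.60, and in the counts as deposited, where they were 2.67, 4.58 and 1.54.

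The steps between aldolase and pyruvate kinase were filled by genes outside the 10. Tpi1, the triose phosphate isomerase, had 34343 (21371 per kb), and Pgk1, a kinase that forms ATP, had 23693 (12982 per kb). Among the mutases Pgam1 had 14629 (8242 per kb) and Pgam2 of muscle had 5097 (6068 per kb). Among the enolases Eno3 of muscle was the highest with 25389 (16233 per kb), before Eno1 with 10878 (5367 per kb) and Eno2 of neurons with 5469 (1957 per kb). Of the 41 further genes listed for the pathway and its exits, 37 reached a mean normalized count of 10. Over all 33924 genes listed, 18479 did. Of the 41 genes, 27 lay above the background median per kb. The median of the 41 genes was 647 per kb, against 6285 per kb over the 10 genes. The 41 genes include regulators and isozymes of other tissues, such as Pklr and Ldhc, so these medians do not compare like with like. Of the enzymes between aldolase and pyruvate kinase, Tpi1, Eno3, Pgk1 and Pgam1 lay above 6285 per kb. Pgam2, Eno1, Eno2 and Gapdh lay below it.

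**Figure D3:**
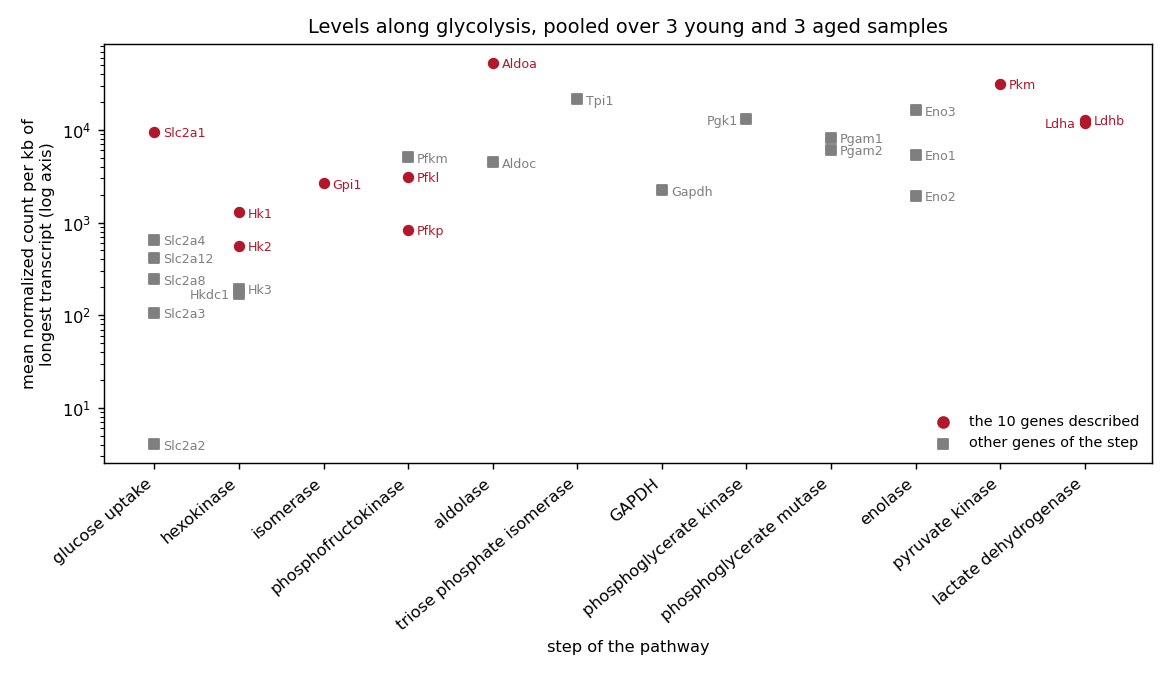
Each point is the mean normalized count per kb of longest transcript (log axis) of 1 gene, placed at its step of the pathway. Red circles are the 10 genes and grey squares are the other listed genes of the step, and genes with a mean count under 10 are left out. Among the red circles Hk2 was the lowest (558 per kb) and Aldoa the highest (52653 per kb).

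Levels differed widely among the genes of the exits and the regulators. Slc16a8, the lactate carrier MCT3 of the basal RPE membrane, had a mean normalized count of 33223 (18396 per kb), and Slc16a1, the carrier MCT1, had 42442 (9589 per kb). Bsg, the chaperone that both carriers need to reach the membrane, had 64551 (42301 per kb). Slc16a3, the carrier MCT4, had 1120.16 (258 per kb), and Slc16a7 had 167 (15.2 per kb). Pdk4 and Pdk1, kinases that shut off pyruvate dehydrogenase, had 859 and 4870.3, and Pdk2 and Pdk3 had 231 and 1078. Pfkfb2, which makes the activator of phosphofructokinase, had 6004, and its relatives Pfkfb3 and Pfkfb4 had 791 and 937. Hif1a, the oxygen-regulated factor known to act on many of these genes, had 16669. Myc, the other regulator listed, had 33.1.

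Markers of several cell types were present in the same pooled libraries, and their part in the levels of the 10 genes was not tested. The dissection was meant to take away the neural retina and the eye muscles. Detected here means a mean normalized count of at least 10, which 18479 of the 33924 listed genes reached. RPE markers were detected in 10 of 10 cases, with mean normalized counts from 81.8 (Best1) to 397586 (Ttr) and a sum of 2.55% of all counts. Markers of rods and cones were detected in 11 of 11 cases, with counts from 645 (Opn1mw) to 46603 (Sag) and a sum of 0.467%. Skeletal muscle markers were detected in 10 of 10 cases, with counts from 21.6 (Tnnc2) to 48944 (Myh4) and a sum of 0.619%, about as much as the 10 genes together. The muscle enzymes Pfkm, Eno3 and Pgam2 named above and Aldoa and Pkm are genes that muscle also uses, and Acta1, the actin of skeletal muscle, had 40522. The 5 of 7 red cell markers that the table lists held 0.520% of all counts. Endothelial and macrophage markers held 0.0666% and 0.0700%, fibroblast markers 0.388%, and pigment cell markers, most of which the RPE shares, 1.29%.

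Reads from near-identical copies can be split between genes, so sequence shared with other genes was measured. In the GENCODE transcripts, each read on its own strand only, all words of 50 bases of Slc2a1, Hk1, Hk2 and Pfkp occurred in no other gene. Sequence shared with the opposite strand was not counted here. The share found in other genes was 0.0298% for Pfkl, 6.43% for Aldoa, 8.23% for Gpi1, 9.03% for Ldha, 20.99% for Ldhb and 25.8% for Pkm. For Ldhb 1 other gene that shared at least 5% of its words, Gm5514, had a mean normalized count of 388, which is 2.32% of that of Ldhb. For Gpi1 the corresponding gene, Gm1840, had 164, which is 1.93% of that of Gpi1. For Pkm, 2 such genes exist and neither was matched in the table by name, so that its level is uncertain. For Ldha and Aldoa no single gene shared as much. Gapdh, the dehydrogenase often used as a reference, had a mean normalized count of 7291 itself, or 2217 per kb. The 36 listed genes sharing at least 5% of its words had 291731 together, so that the level of Gapdh is uncertain. The same holds for Pgk1, whose 2 listed sharing genes had 38368 together, and for Pgam1, whose 2 had 5576. Eno1 shared 26.0% of its words, and its 2 sharing genes were not matched in the table, so that its level is uncertain too. Overlap in the genome was small for most of the 10 genes. An exon overlap with a gene on the opposite strand covered 11.5% of the exon bases of Gpi1 (Gm26762), 5.58% of Pfkp (Pitrm1) and at most 2.99% of Slc2a1, Hk1 and Aldoa, and Gm49759 on the same strand covered 15.3% of those of Pkm. Pitrm1 had a mean normalized count of 1481. The library kit keeps the strand, but whether the quantification used it is not given in the sources used here.

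**Figure D4:**
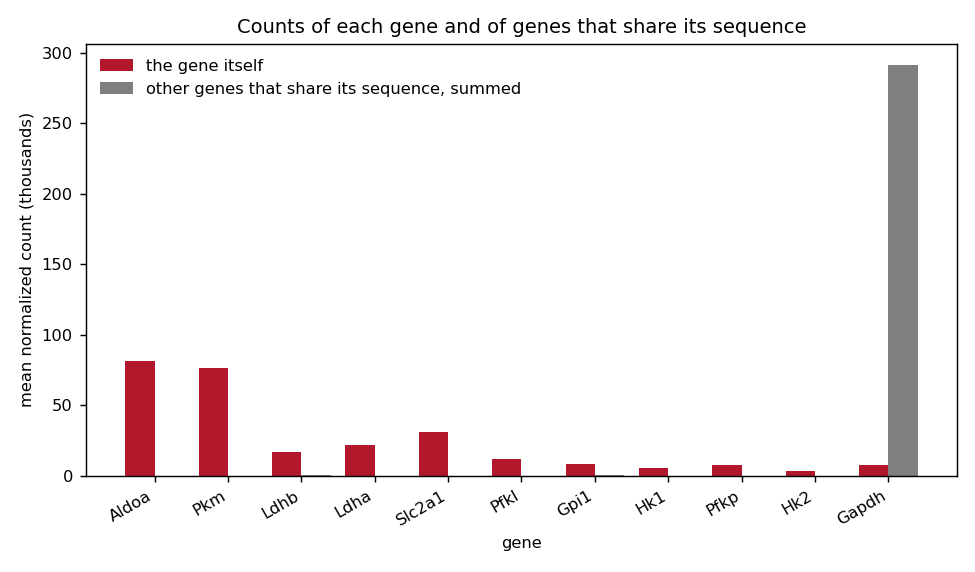
Red bars are the mean normalized count of each gene, in units of 1000 counts on an axis from 0, and grey bars the summed count of other genes that share at least 5% of its words of 50 bases. Grey bars for the 10 genes reach at most 388 counts (Ldhb), against 291731 for Gapdh. Sharing genes not matched by name, such as those of Pkm, and genes that share less add nothing to the grey bars.

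A sequence feature the choice of genes did not use is the core of the hypoxia response element, ACGTG. It is the letters that HIF proteins read, and it was searched on both strands of the RefSeq promoter windows of GRCm38.p6, from 250 bases before to 50 bases after a gene start. All 10 genes matched, with 15 windows in all. The core was found in 7 of these 15 windows, which belong to 6 of the 10 genes, or 46.7% of windows. It was found in 23.7% of the 15437 windows of the background genes and in 19.6% of all 32851 windows. Some windows of a gene overlap, and the windows of Aldoa with the core hold the same match. The share of background genes with the core in any window was not worked out, so the count of 6 genes has no share beside it. GC content was higher in the windows of the 10 genes (median 63.3%) than in those of the background genes (60.0%). The other form, GCGTG, was found in 7 of the 15 windows (46.7%) and in 46.8% of the background windows. Either form was found in 11 of the 15 windows (73.3%) and in 58.0% of the background windows. A match is a run of letters and not a site in use. The match closest to a RefSeq start is printed for each of the 6 genes, so that the shared letters and their surroundings can be compared. For Hk1, Ldha, Aldoa and Pkm that start lies inside the gene span given above, not at its outer end. The printed match is in capitals as it reads on the gene's strand (CACGT is the core on the opposite strand).
Slc2a1, chr4:119108700-119108722, plus strand: ccgccccggACGTGctccccagg
Hk1, chr10:62340401-62340423, minus strand: gcgctccttACGTGgggaacgtg
Hk2, chr6:82774493-82774515, minus strand: gagcacatcCACGTcactgtccg
Aldoa, chr7:126799367-126799389, minus strand: ggctcgagtCACGTcctagcggg
Pkm, chr9:59657226-59657248, plus strand: cattctagtCACGTccgcggact
Ldha, chr7:46845761-46845783, plus strand: gggttcccgCACGTccgctgggc

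Ldha held 5 matches, and 4 of them came from 2 runs of CACGTG, which reads the same on both strands and was counted on each. Hk1, Hk2 and Pkm held 2 matches each, and the second match of Hk1 is the last 5 letters, in lower case, of the stretch printed for it. Aldoa and Slc2a1 held 1 match each. Gpi1, Pfkl, Pfkp and Ldhb held none in these windows, which says nothing about other stretches near these genes. The genes with the core included the highest (Aldoa) and the lowest (Hk2) of the 10. By position, Gpi1, Ldha and Aldoa lie on chromosome 7, Hk2 and Ldhb on chromosome 6, Hk1 and Pfkl on chromosome 10, and each of the other 3 on a chromosome of its own.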

How the data were processed

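The 10 genes and the lists of other genes were chosen with earlier results of these data known. Per the study methods, the authors filtered the paired reads with BBDuk, aligned them by STAR to Ensembl transcripts of GRCm38, and estimated TPM in Sailfish, which were then turned into counts scaled to the library total. The deposited signal used here is the mean normalized count per gene, which the authors averaged over all 6 libraries with DESeq2. TPM are scaled by length. Whether the deposited counts kept this scaling is not given in the sources used here, so levels are given on several scales. The 5 other measurement columns hold the authors' own fold change, its standard error, test statistic, p-value and adjusted p-value for age, and were not used. The planned test on values per library was not run, since the table has none.

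Gene positions, transcript lengths and sequences came from GENCODE M21 (GRCm38), matched by symbol or older symbol for 91.4% of the listed genes with 98.7% of the counts. The background was protein-coding genes whose mean normalized count reached 10. Percentiles are the percent of these genes with a lower level per kb. All 10 genes were named by rule, and genes of the same step beside them. Markers named singly were chosen after their values were seen. Some listed genes are not reported here and were left out of the counts and sums of their lists. The functions for levels per kb, percentiles and cutting sequence into words were checked on simulated data. The counts of shared words and the promoter search were not checked in this way. Python 3.11.15, numpy 2.4.6, pandas 2.3.3 and matplotlib 3.10.9 were used.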

Additional observations from a re-analysis of the deposited data

How the results depend on the processing

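No paired analysis was possible because no value per library was given. For the same reason the planned tests between ages, other normalizations, pseudocounts and fits without single replicates were not run. Values were taken as unmoved when they changed by no more than 1.5 times. The ratio of Ldha to Ldhb turned from 0.930 to 1.29 in the counts as deposited, 1.44 with the median transcript length and 1.20 with the coding length. The ratio of Pfkl to Pfkp fell from 3.72 to 1.60, 2.11 and 1.61 under the same settings. That of Hk1 to Hk2 went from 2.32 to 1.80, 4.58 and 1.75. Each of these shifts follows from the lengths by construction. The ranks of 6 of the 10 genes were the same in the counts as deposited and with the median transcript length, and those of 4 with the coding length. The share of all counts was 0.699% without the 10 most abundant genes and 0.653% without muscle and red cell markers. Leaving out either set lowers only the total, so both shares rise by construction. Counts of the 10 genes that may come from muscle or red cells were kept. The median percentile of the 10 genes was 96.7. It was 97.1 over all protein-coding genes above 0 and 96.3 over protein-coding genes with a mean of at least 50.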
